A study of Mus musculus with 4 samples.

Results

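S100 proteins are small calcium-binding proteins with a pair of EF-hand loops, and most of them work as dimers that attach to other proteins when calcium rises. They carry no enzyme activity of their own, and their known partners include annexins, cytoskeletal proteins, calcium pumps and growth factors. In the intestine the best known of them is S100g, also called calbindin-D9k, the vitamin D-induced buffer that carries calcium through the enterocyte. The expression of 9 S100 genes (S100a1, S100a4, S100a6, S100a10, S100a11, S100a13, S100a14, S100a16 and S100g) was described here, of 31053 mouse gene identifiers counted. They were chosen by name with the counts and the differences between groups in these same libraries already known, so their differences are given as a description and support nothing by themselves.

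RNA was counted at the 3′ end of transcripts in sorted crypt cells and in small intestinal organoids. The sorted cells came from 3 male mice that carried EGFP in place of 1 copy of Ret, so that fluorescence reports activity of the gene for RET, the receptor tyrosine kinase for GDNF. Both sorted populations thus had 1 intact copy of Ret. There were 5 Ret-EGFP+ libraries and 5 non-EGFP libraries, each of 1000 cells, sorted with a gate set on a littermate control. The organoids were grown from proximal intestinal crypts of wild-type C57BL/6J mice, in medium with EGF, NOGGIN and R-spondin, in 3 experiments, with a female mouse each in experiments 1 and 2 and a male mouse in experiment 3. On day 4 there were 6 libraries treated with GDNF and its co-receptor GFRA1, both at 500 ng/mL, and 6 control libraries that received neither, with 2 libraries per treatment in each experiment. The 5 libraries of either sorted population came from at most 3 mice, so some of them share a mouse. The sample sheet does not give the mouse, so libraries could be neither blocked nor paired between populations by mouse. The 2 organoid libraries of a treatment and experiment share a mouse as well. The errors thus measure the spread between libraries and may be partly technical.

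Expression is reported in CPM, the usual counts-per-total unit of RNA-seq, with each total corrected by a TMM factor for library composition. Because a transcript gives 1 tag at its 3′ end, its CPM does not grow with transcript length. Ret, which checks the sort, was at 15.3 to 49.0 CPM in the Ret-EGFP+ libraries against 0 to 2.27 CPM in the non-EGFP libraries. The hormone-granule gene Chga was at 1279 to 2303 CPM in Ret-EGFP+ libraries, against 35.2 to 320.8 CPM in non-EGFP libraries. All 5 enteroendocrine markers were called higher, with a sum of 19248 to 26890 CPM in Ret-EGFP+ libraries against 1003 to 3432 CPM in non-EGFP libraries. In organoids Ret had 17 counts over the GDNF and 22 over the control libraries. Each Ret-EGFP+ library held between 1185426 and 3222485 counts and each non-EGFP library between 1113006 and 4717549. GDNF libraries held 1042028 to 2010359 counts and control libraries 1106882 to 1983259. The summed level of 5 Paneth cell markers was 2904 to 7156 CPM in Ret-EGFP+ libraries, against 170453 to 434421 CPM in non-EGFP libraries, so Paneth cell transcripts took a large share of the non-EGFP libraries. Of the 5 myeloid markers, 4 were at 0 in Ret-EGFP+ libraries and 1 in non-EGFP libraries, and the 5 mesenchyme markers summed to at most 1.34 CPM in Ret-EGFP+ libraries and were at 0 in non-EGFP libraries. T and innate lymphoid markers summed to 0 to 12.2 CPM in Ret-EGFP+ libraries, against 5.69 to 55.5 CPM in non-EGFP libraries. Of these 5 markers, 3 were called lower and 1 higher in Ret-EGFP+ cells. In such bulk samples fewer cells of a type and less RNA per cell cannot be told apart.

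Of the 9 genes, 8 lie on chromosome 3 of the mouse genome (GRCm38, GENCODE annotation), where 12 S100 genes fill 185 kb and S100a10 and S100a11 stand 2.82 Mb further on. S100a1 (chr3:90511034-90514392, minus strand) and S100a13 (chr3:90514435-90524581, plus strand) are neighbours that start back to back, with 42 bases between them. S100a14 (chr3:90526856-90528837) and S100a16 (chr3:90537254-90543151) follow on the plus strand, then S100a4 (chr3:90603771-90606045) and S100a6 (chr3:90612882-90624181). S100a11 (chr3:93520488-93526287) and S100a10 (chr3:93555080-93564643) lie on the plus strand as well, and S100g (chrX:162961992-162964599) is alone on the X chromosome. S100a4 shares 302 of its 584 exonic bases with the gene Gm42674 on the same strand, which had 0 counts in both tables. How reads in the shared bases were assigned is not given in the sources used here, so the low counts of S100a4 below cannot be taken as its level.

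Promoter windows of 300 bases (250 before and 50 after the start, RefSeq, GRCm38.p6) were at hand for 7 of the 9 genes, S100a10 and S100a14 being without an entry. The RefSeq starts of S100a1 and S100a13 are 104 bases apart, so their windows share 204 bases. A search on both strands covered the TATA box (TATAAA), the AP-1 site (TGANTCA), the core of the cAMP response element (TGACGTC), the E-box (CACGTG), the GC box (GGGCGG) and the CCAAT box. S100a11 held 2 AP-1 sites, and 0.46% of 32851 windows held 2 or more. The letters TATAAA, in 13.6% of windows, were present in S100a4, 31 bases before the start, and in S100g, where they begin at the start itself. The cAMP response core, in 3.21% of windows, was in S100a13, where it lies inside the neighbouring S100a1 gene. E-boxes (7.15% of windows) were in S100a6 and S100a11, and a CCAAT box (37.4%) in S100a6. GC boxes (35.7% of windows) were in S100a11 and in the second window of S100a16, which also held 1 AP-1 site (7.81%). S100a1 and the first window of S100a16 held none of these letters. The matches below are shown for the gene pair that is described first, for S100a11, and for the 2 genes with TATAAA. Each has 30 bases on the gene's own strand from 5′ to 3′, with the matched letters in capitals:
S100a13, chr3:90514203-90514232: ttggcctcggccTGACGTCggaacagattc
S100a11, chr3:93520348-93520377: acagagacctgtTGAGTCAcagggactaca
S100a11, chr3:93520446-93520475: gcgggcacagccTGAGTCAggctgaggggc
S100g, chrX:162964582-162964611: gtctgtaaagacTATAAAagagcccctcct
S100a4, chr3:90603727-90603756: ggcctggcagggTATAAAtaggtcagattg
Such a match says that the letters are present and nothing of a factor bound there.

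In sorted cells some of the S100 genes differed between the populations, in both directions. S100a13 was 5.46-fold and S100a1 2.88-fold higher in Ret-EGFP+ cells, and S100g was 14.1-fold, S100a16 4.70-fold and S100a10 4.15-fold lower than in non-EGFP cells. S100a6 and S100a11 lay at overlapping levels in both populations. Of the 8 genes with enough counts to test, 2 were called higher and 3 lower (edgeR quasi-likelihood test, adjusted p under 0.1 over 13672 genes), and these 5 were also the ones whose libraries did not overlap. Among all genes tested 21.5% were called higher and 21.4% lower, and 10.9% stood higher and 12.2% lower without overlap. The median log2 fold change was -0.04 over the 8 genes and 0.10 over all genes tested. Because the genes were chosen with this comparison known, nothing is read from these counts.

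**Figure D1:**
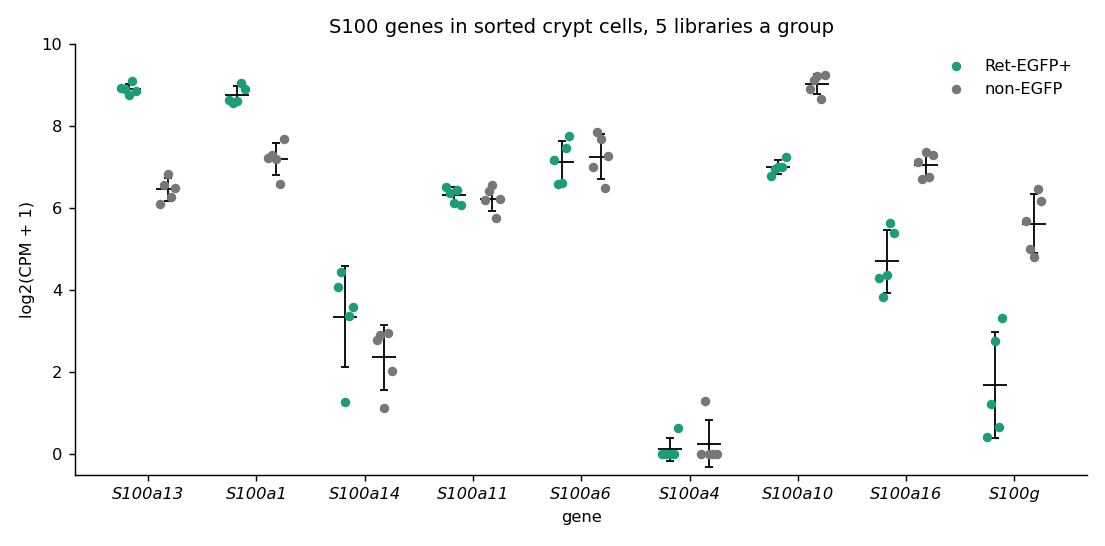
Level of the 9 S100 genes in sorted crypt cells, as log2(CPM + 1), with 1 point per library and bars for the mean ± SD of 5 Ret-EGFP+ libraries (left of each pair) and 5 non-EGFP libraries (right). S100a13 and S100a1 stand higher in every Ret-EGFP+ library, S100a10, S100a16 and S100g stand lower, and the others overlap.

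S100a13 takes part in the release of FGF1 and interleukin 1 alpha, which leave cells outside the usual secretory route. It was at 487.8, 477.2, 430.6, 545.5 and 462.9 CPM in the Ret-EGFP+ libraries, against 68.1, 94.3, 113.0, 76.2 and 88.2 CPM in the non-EGFP libraries. The groups were far apart, with a log2 fold change of 2.45 ± 0.19 (SE, n = 5 each). It was the S100 gene with the highest mean in Ret-EGFP+ cells, 480.8 ± 42.1 CPM (SD), rank 159 of all genes there and rank 1447 in non-EGFP cells. S100a1, known from heart muscle as a regulator of the calcium release channel and the calcium pump of the sarcoplasmic reticulum, came next. It was at 399.6, 378.3, 386.9, 532.0 and 478.0 CPM in Ret-EGFP+ libraries, against 148.5, 155.8, 146.5, 94.4 and 204.7 CPM in non-EGFP libraries. No Ret-EGFP+ library fell into the non-EGFP range, and the log2 fold change was 1.53 ± 0.19. The ranges of S100a13 and S100a1 overlapped within Ret-EGFP+ cells.

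These neighbours, whose starts lie in the segment described above, thus stood higher in the same libraries, by unequal amounts. The ratio of S100a13 to S100a1 was 0.97 to 1.26 in Ret-EGFP+ libraries (median 1.11) and 0.43 to 0.81 in non-EGFP libraries (median 0.61). In organoids, with every cell type together, it was 0.31 to 0.56 with GDNF (median 0.37) and 0.31 to 0.42 in controls (median 0.34). S100a13 was therefore the less abundant of these neighbours in every library outside the Ret-EGFP+ group. The next genes along the chromosome went other ways, since S100a14 was not called and S100a16 was lower, as the plot in chromosome order shows.

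**Figure D2:**
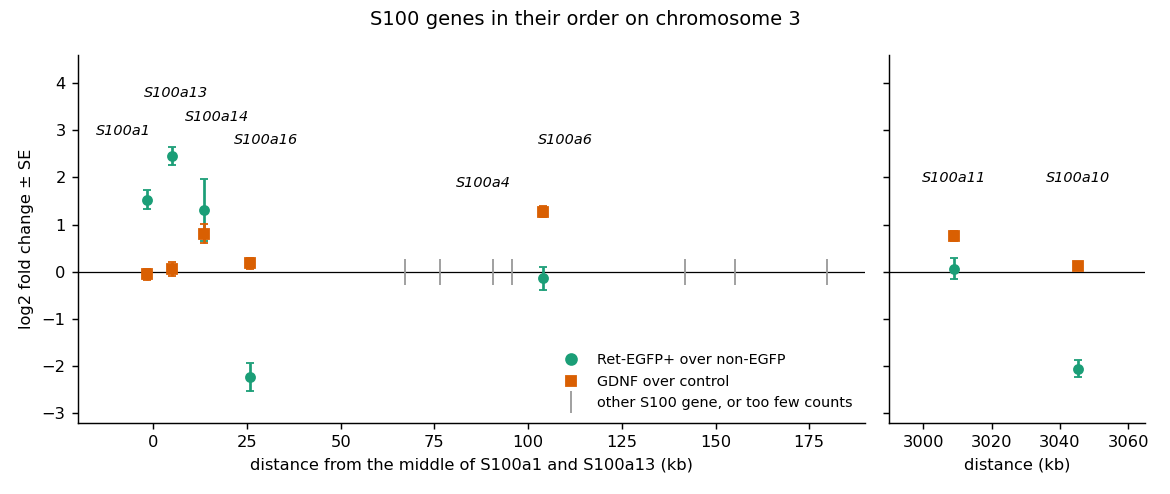
Log2 fold changes (± SE) of the S100 genes tested, by distance in kb from the middle of S100a1 and S100a13, for Ret-EGFP+ over non-EGFP cells (circles) and GDNF over control organoids (squares). Grey ticks mark the other S100 genes and S100a4, and the panel on the right holds S100a11 and S100a10. S100a1 and S100a13 are raised in Ret-EGFP+ cells and near 0 in the GDNF comparison, whereas S100a6 and S100a11 are near 0 in sorted cells with TMM scaling (0.41 and 0.63 with total counts alone) and raised with GDNF.

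S100a10 does not bind calcium and forms a complex with annexin A2 at the cell membrane. It was at 108.5, 122.3, 126.6, 127.3 and 151.7 CPM in Ret-EGFP+ libraries, against 479.1, 554.9, 596.6, 402.5 and 607.3 CPM in non-EGFP libraries. The groups did not overlap, and the log2 fold change was -2.05 ± 0.18. It was the most abundant S100 gene of the non-EGFP cells, at 528.1 ± 86.4 CPM (SD, n = 5). Anxa2 itself did not pass, with 160.5 ± 48.4 CPM in Ret-EGFP+ cells against 202.3 ± 28.8 CPM in non-EGFP cells (log2 fold change -0.33 ± 0.21, edgeR adjusted p = 0.22). Ahnak, a giant scaffold protein that binds this complex, had 3 counts in Ret-EGFP+ libraries against 132 in non-EGFP libraries, a ratio of 0.0251 with an exact 95% counting interval of 0.00511 to 0.0750.

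S100a11, a partner of annexin A1, was at 90.8, 82.2, 69.0, 86.0 and 66.8 CPM in Ret-EGFP+ libraries and 72.4, 84.8, 93.0, 53.4 and 73.2 CPM in non-EGFP libraries. The groups overlapped over most of their range, and the interval of the log2 fold change was -0.40 to 0.52. Anxa1 had 3 counts over all Ret-EGFP+ libraries and 4 over all non-EGFP libraries, near the limit of detection in both. S100a6, or calcyclin, which rises in dividing and stressed cells and binds the ubiquitin-ligase adaptor Cacybp, was at 143.7, 94.9, 96.9, 176.7 and 216.4 CPM in Ret-EGFP+ libraries and 127.4, 230.5, 204.1, 88.7 and 152.1 CPM in non-EGFP libraries. Its levels spread more than 2-fold within either group, and the interval of the log2 fold change was -0.65 to 0.37. With scaling by total counts alone, under which the median over the whole table was 0.66 instead of 0.10 (4695 genes called higher and 1839 lower, against 2938 and 2921 with TMM), S100a11 was called higher (0.63) and S100a6 stood at 0.41. Neither exceeded that shifted median.

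S100a16, an S100 protein broadly made in epithelia, was at 18.6, 13.4, 19.7, 48.9 and 40.8 CPM in Ret-EGFP+ libraries, against 137.7, 103.4, 163.0, 106.9 and 156.1 CPM in non-EGFP libraries. Its groups were apart even at the 2 highest Ret-EGFP+ libraries, and the log2 fold change was -2.23 ± 0.30. S100a14, also epithelial, was rarer, at 15.9, 20.7, 1.44, 9.43 and 10.96 CPM in Ret-EGFP+ libraries, against 5.87, 6.55, 1.18, 6.82 and 3.11 CPM in non-EGFP libraries. Of the Ret-EGFP+ libraries 4 lay above every non-EGFP library, but the Ret-EGFP+ library at 1.44 CPM, with 3 counts, did not. The lowest non-EGFP library, with 2 counts, was of the same plate. The other libraries of that plate were not low, at 20.7 and 9.43 CPM (Ret-EGFP+) and 6.55 and 6.82 CPM (non-EGFP). The log2 fold change of S100a14, 1.31 ± 0.66, was not called, nor was it with the plate as a covariate (1.32, edgeR adjusted p = 0.157). Without the Ret-EGFP+ library at 1.44 CPM it was 1.60 and called. It was also called by DESeq2 (1.42), with that tool's size factors (1.41), with total counts alone (1.85) and with edgeR's own filter (1.39). S100a4, a stromal and leukocyte S100 protein that binds non-muscle myosin, had 2 counts in 1 Ret-EGFP+ library and 4 in 1 non-EGFP library, too few to test. The ratio was 0.552, with an exact 95% counting interval of 0.0499 to 3.85.

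S100g was at 0.339, 1.34, 5.75, 0.589 and 9.04 CPM in Ret-EGFP+ libraries, against 50.1, 30.9, 27.1, 87.5 and 70.7 CPM in non-EGFP libraries. All Ret-EGFP+ libraries were below the lowest non-EGFP library, and the log2 fold change was -3.82 ± 0.60. The counts in Ret-EGFP+ libraries were 1, 2, 12, 1 and 33, so its level there rested mostly on 2 libraries. Without Ret-EGFP+ library 5 the log2 fold change was -4.69, and without plate 4, which held that library and a non-EGFP one, -4.56. The 5 enterocyte markers moved with it, at a summed 1567 to 2636 CPM in Ret-EGFP+ libraries against 7048 to 16856 CPM in non-EGFP libraries, with 4 called lower and 1 higher. Their part in the S100g difference was not tested.

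**Figure D3:**
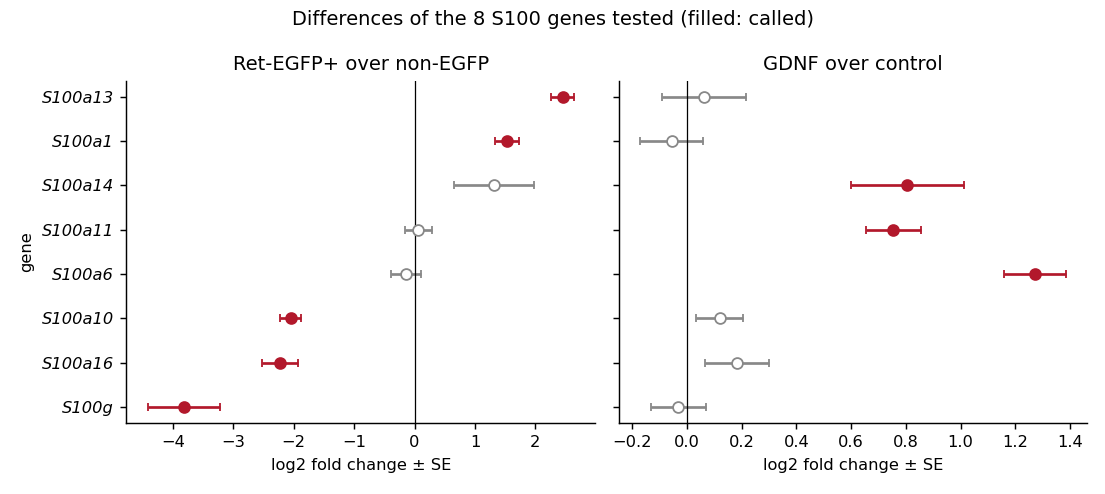
Log2 fold changes with their standard errors for the 8 S100 genes with enough counts, Ret-EGFP+ over non-EGFP cells on the left (n = 5 each) and GDNF over control organoids on the right (n = 6 each). Filled points passed an adjusted p under 0.1, which 5 genes did on the left and 3, S100a6, S100a11 and S100a14, on the right.

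With GDNF, the members called were not those called in sorted cells, but the call of S100a14 depended on the settings in both comparisons. S100a6 was 2.41-fold, S100a14 1.75-fold and S100a11 1.69-fold higher in GDNF-treated than in control organoids, whereas S100a1, S100a10, S100a13, S100a16 and S100g were not called. The edgeR test with the experiment as a block called 3 of the 8 genes higher and 0 lower, where 0.532% of 12220 genes were called higher and 0.131% lower. None of the 8 had an unadjusted p under 0.05 in the lower direction, and DESeq2 called 2 higher and 0 lower. S100a6 and S100a11 were also without overlap between the 6 GDNF and 6 control libraries, as were 0.213% of all genes tested in that direction and 0.0573% in the other. The median log2 fold change was 0.15 over the 8 genes and 0.01 over all genes tested. This comparison, too, was known when the genes were chosen, and nothing is read from these shares.

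S100a6 was at 119.0 to 209.7 CPM in GDNF libraries (median 177.6), against 45.5 to 90.5 CPM in control libraries (median 69.9). Every GDNF library was thus above every control library. In experiment 1 it was at 190.2 and 176.5 CPM with GDNF, against 90.5 and 75.4 CPM in controls. In experiment 2 the values were 178.8 and 209.7 CPM with GDNF, against 70.1 and 45.5 CPM in controls. In experiment 3 they were 125.0 and 119.0 CPM with GDNF, against 58.6 and 69.7 CPM in controls. The log2 fold change was 1.27 ± 0.11 (SE, n = 6 each), the largest of the family. By experiment it was 1.16 ± 0.18, 1.75 ± 0.19 and 0.92 ± 0.19. S100a6 ranked 1128 of all genes by mean CPM with GDNF and 2659 in controls.

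S100a11 was at 143.2 to 191.1 CPM in GDNF libraries (median 156.6), against 84.5 to 103.2 CPM in control libraries (median 97.2). Again no library of one treatment fell into the range of the other. In experiment 1 it was at 148.1 and 143.2 CPM with GDNF, against 97.2 CPM in both controls. The values were 173.2 and 191.1 CPM with GDNF and 98.9 and 103.2 CPM in controls in experiment 2. In experiment 3 they were 165.0 and 144.4 CPM with GDNF and 84.5 and 89.7 CPM in controls. The log2 fold change was 0.75 ± 0.10 overall and 0.58 ± 0.17, 0.85 ± 0.17 and 0.83 ± 0.17 by experiment.

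S100a14 was at 10.4 and 15.5 CPM with GDNF against 9.63 and 6.07 CPM in controls in experiment 1, and at 17.5 and 26.9 CPM with GDNF against 9.60 and 9.11 CPM in controls in experiment 2. In experiment 3, at 40.5 and 31.9 CPM with GDNF against 20.9 and 28.6 CPM in controls, both treatments were higher than elsewhere. The treatments overlapped over all experiments and not within any of them. The log2 fold change of 0.81 ± 0.21 was called by edgeR and not by DESeq2 (0.81, adjusted p = 0.147), and its adjusted p rose above 0.1 when any of 7 libraries or any 1 experiment was left out. Taken by experiment, S100a6, S100a11 and S100a14 were higher in both GDNF libraries in each of the 3 experiments, as were 1.15% of all genes tested.

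**Figure D4:**
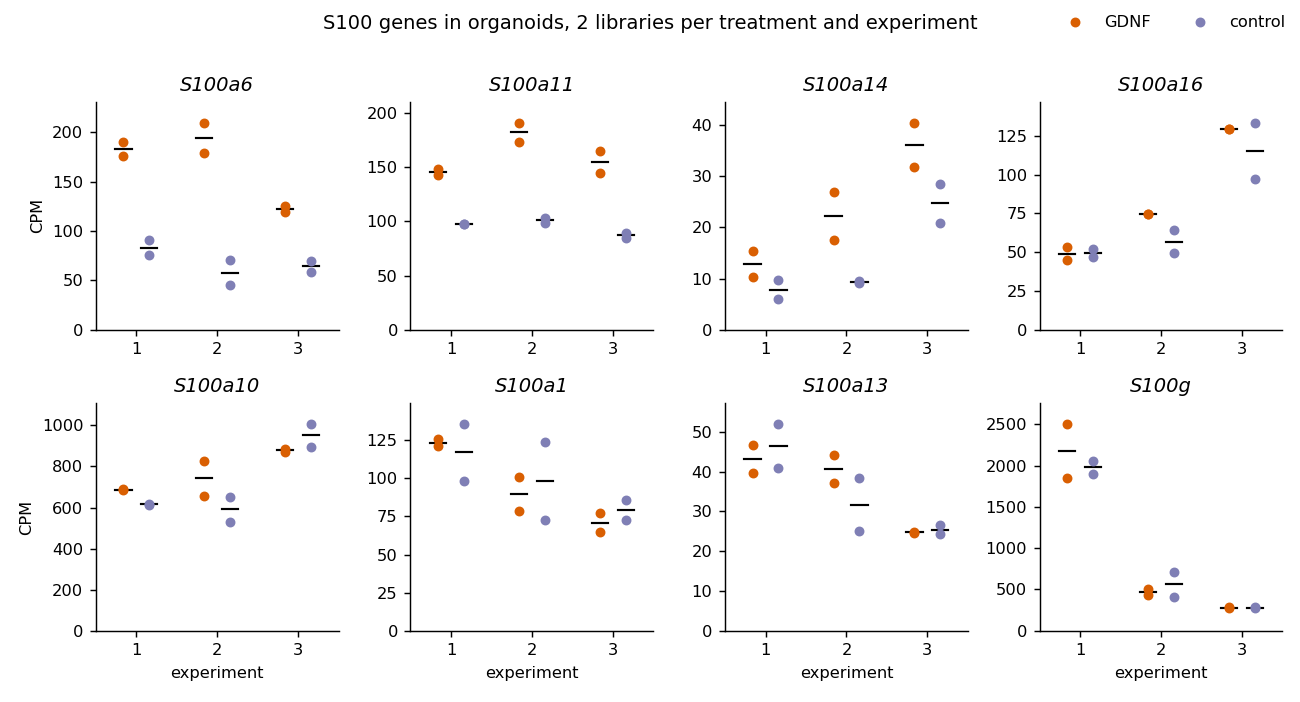
CPM of 8 S100 genes in organoids by experiment, with 1 point per library and a line at the mean of the 2 libraries, GDNF on the left and control on the right of each pair, each panel on its own axis from 0. S100a6 and S100a11 are higher with GDNF in each experiment, and S100g drops from experiment 1 to experiment 3 in both treatments alike.

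The other 5 genes tested were not called. S100g averaged 975.8 ± 957.1 CPM with GDNF and 939.2 ± 821.5 CPM in controls (SD, n = 6 each), a spread mostly between experiments, with an interval of the log2 fold change of -0.23 to 0.17. S100a10 averaged 768.8 ± 103.8 CPM with GDNF and 719.7 ± 187.3 CPM in controls (SD, n = 6 each; interval -0.05 to 0.29). The intervals were -0.28 to 0.17 for S100a1, -0.24 to 0.37 for S100a13 and -0.05 to 0.42 for S100a16. S100a4 had 1 count in GDNF and 1 in control libraries.

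Whether the GDNF effect differed between experiments was tested for each gene by the treatment-by-experiment interaction. No S100 gene passed after adjustment, and 0.00818% of all genes tested did. The smallest unadjusted p was 0.00859 for S100a6, whose adjusted p was 0.89, and it was the only S100 gene under 0.05 before adjustment, as were 608 of all genes tested. DESeq2 was not run for this test. For the other genes the adjusted p was 0.99. For S100a10 the direction varied, with log2 fold changes of 0.16 ± 0.15, 0.33 ± 0.15 and -0.12 ± 0.15 in experiments 1, 2 and 3.

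Organoids of different experiments also differed in their S100 transcripts. This test, of the experiment terms with treatment in the model, does not use the contrast by which the genes were chosen, but was itself chosen after the values had been seen. Of the 8 genes 7 were called, where 35% of all genes tested were. The experiment, the mouse and, for experiment 3, its sex cannot be told apart. S100g stood out, at 1848 to 2505 CPM in experiment 1, 412.1 to 710.9 CPM in experiment 2 and 272.4 to 286.9 CPM in experiment 3 (4 libraries each). The ranges did not touch, and its log2 fold change was -2.01 ± 0.12 for experiment 2 and -2.90 ± 0.13 for experiment 3 over experiment 1 (adjusted p = 4.65e-24 for both terms together). In experiment 1 it was thus 7.46-fold above experiment 3, and in either treatment both libraries of experiment 1 lay above those of experiments 2 and 3.

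Enterocyte markers moved with S100g in part. Their summed level was 27598 to 31509 CPM in experiment 1, 19516 to 23813 CPM in experiment 2 and 20685 to 27030 CPM in experiment 3. Fabp2, the intestinal fatty acid-binding protein, averaged 11441, 6701 and 2984 CPM in experiments 1, 2 and 3, a fall in the same order that was smaller than that of S100g. Alpi, the brush-border alkaline phosphatase, averaged 356.8, 221.0 and 206.8 CPM, and Fabp1 went another way with 13550, 12338 and 17221 CPM. Named after their values were seen, the marker Sis averaged 1362, 1008 and 957.1 CPM and Apoa1 averaged 3032, 1698 and 2282 CPM. Apoa1 thus did not follow the order of S100g either. The nuclear receptor for vitamin D, Vdr, averaged 227.5, 197.9 and 169.5 CPM (adjusted p = 0.0110). What part these genes had in the S100g difference was not tested.

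S100a16 ran the other way, with 44.7 to 53.0 CPM in experiment 1, 49.3 to 74.8 CPM in experiment 2 and 97.1 to 133.5 CPM in experiment 3 (adjusted p = 3.26e-13). S100a14 did likewise, with 6.07 to 15.5, 9.11 to 26.9 and 20.9 to 40.5 CPM (adjusted p = 4.71e-07). S100a10 was at 614.0 to 689.8 CPM in experiment 1, 530.5 to 826.6 CPM in experiment 2 and 870.9 to 1007 CPM in experiment 3 (adjusted p = 4.97e-05), and its partner Anxa2 averaged 746.8, 709.7 and 1529 CPM (adjusted p = 1.34e-17). In contrast, S100a1 averaged 120.2, 94.1 and 75.1 CPM (adjusted p = 0.000331) and S100a13 averaged 44.8, 36.2 and 25.1 CPM in the 3 experiments (adjusted p = 0.00111). The neighbours that stood higher together in Ret-EGFP+ cells were thus both lowest in experiment 3. S100a6 was lowest in experiment 3 too, by a log2 fold change of -0.49 ± 0.14 over experiment 1 (adjusted p = 0.0126), which did not pass without 1 GDNF library of experiment 3 (adjusted p = 0.136). S100a11 did not pass (adjusted p = 0.26). In control libraries alone, with 2 per experiment, 5 of the 8 were called, where 17.9% of 12056 genes were, S100a1 and S100a6 no longer among them.

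Across the 4 groups the family was led by different members. In Ret-EGFP+ cells S100a13 and S100a1 had the highest means, and S100g, at 3.41 CPM, the lowest apart from S100a4. In non-EGFP cells the order began with S100a10 at 528.1 CPM and S100a6 at 160.6 CPM. In organoids S100g led in experiment 1, with 2077 CPM against 651.4 CPM of S100a10, and S100a10 led in experiments 2 and 3, with 666.3 and 915.1 CPM against 516.4 and 278.7 CPM of S100g. S100a13 averaged 36.2 CPM in GDNF and 34.5 CPM in control organoids. The sorted cells and the organoids were separate tables scaled separately, so levels are set side by side here and not tested. The summed level of the 9 genes was 1311 ± 165.3 CPM in Ret-EGFP+ cells against 1194 ± 188.0 CPM in non-EGFP cells (SD, n = 5 each), and the ranges of the sums overlapped.

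Of 9 other S100 genes of the mouse, S100a7l2 was matched to no identifier, and the rest were rare. S100a3 had 32 counts in Ret-EGFP+ libraries, in 3 of the 5 (15, 13 and 4), and 0 in non-EGFP libraries. It shares 144 of its 5660 exonic bases with neighbouring genes on its strand, which leaves these counts uncertain. It was called higher (edgeR adjusted p = 0.0161), with an interval of the log2 fold change of 2.12 to 9.69, although the libraries overlapped at 0. Set against a floor of 3 counts over the non-EGFP group, its pooled counts were 11.8-fold higher, which is not a lower bound across libraries. S100a8, made by neutrophils, had 0 counts in Ret-EGFP+ libraries against 7 in 1 non-EGFP library, and S100a9 and S100a7a had 0 in both populations. S100a5 had 40 counts in GDNF and 25 in control organoids and S100b, the glial S100 protein, 10 and 12, and neither was called. S100z had 12 counts in Ret-EGFP+ cells against 14 in non-EGFP cells, and S100a2 had 2 counts in GDNF and 0 in control organoids.

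Partners and receptors of S100 proteins were read from a list of 13 genes. In sorted cells 9 were tested, 2 called higher and 4 lower, with a median log2 fold change of -0.33. Over all genes tested 21.5% were called higher and 21.4% lower, with a median of 0.10. The share called higher was thus near that background and the share called lower above it. The list was chosen with earlier results known, so nothing is read from these shares. Besides Ahnak, which was called lower (adjusted p = 0.000317), Cacybp, the partner of S100a6, averaged 69.3 ± 11.3 CPM in Ret-EGFP+ cells against 132.3 ± 32.0 CPM in non-EGFP cells (log2 fold change -0.94 ± 0.22, adjusted p = 0.00138). Fgf1 is the growth factor released with S100a13. It was at 0 to 3.84 CPM in Ret-EGFP+ libraries (21 counts) against 2.35 to 21.6 CPM in non-EGFP libraries (105 counts). The ranges overlapped, and Fgf1 was called lower (-2.34 ± 0.83, adjusted p = 0.0293), opposite to S100a13. Atp2a2, the calcium pump bound by S100a1 in muscle, averaged 75.8 ± 16.9 CPM in Ret-EGFP+ cells against 48.1 ± 9.84 CPM in non-EGFP cells (0.66 ± 0.25, adjusted p = 0.0414). Named after their values were seen, S100pbp rose (102 against 33 counts, adjusted p = 0.0717) and Syt1 was lower, resting on 6 counts of 1 non-EGFP library. Myh9, the heavy chain bound by S100a4, was not called, with 41.99 ± 10.7 CPM in Ret-EGFP+ cells against 44.8 ± 15.3 CPM in non-EGFP cells.

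With GDNF 1 of 9 partner genes tested was called higher (0.532% of all genes tested) and 0 lower (edgeR and DESeq2, with 3 higher and 1 lower at an unadjusted p under 0.05). This was Anxa1, the annexin that S100a11 binds. It was at 10.2 to 33.2 CPM in GDNF libraries (median 24.0), against 0.664 to 8.35 CPM in control libraries (median 3.60), with 207 counts in GDNF and 32 in control libraries. The treatments did not overlap, and the log2 fold change was 2.51 ± 0.28 (n = 6 each, edgeR adjusted p = 1.03e-10). Anxa2 averaged 1051 ± 412.2 CPM with GDNF and 939.4 ± 433.4 CPM in controls and was not called (0.19 ± 0.09, adjusted p = 0.64), nor was Cacybp (-0.14 ± 0.09, adjusted p = 0.83). The median over the 9 genes was 0.15, against 0.01 over all genes tested.

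Intestinal calcium uptake and vitamin D were covered by 9 genes, of which 4 could be tested in sorted cells, 2 being called higher and 1 lower (21.5% and 21.4% of all genes tested). Atp2b1, a calcium pump of the plasma membrane, was at 268.0 to 429.5 CPM in Ret-EGFP+ libraries against 126.3 to 186.3 CPM in non-EGFP libraries (log2 fold change 1.17 ± 0.18, adjusted p = 8.58e-06). Slc8a1, a sodium-calcium exchanger, had 70 counts spread over all 5 Ret-EGFP+ libraries and 0 in the non-EGFP ones. It was 25.8-fold higher by the same floor, and the interval of the log2 fold change was 4.00 to 9.80 (edgeR adjusted p = 0.000458). Vdr fell to 15.3 to 35.96 CPM in Ret-EGFP+ libraries, against 37.7 to 78.5 CPM in non-EGFP libraries (-1.02 ± 0.29, adjusted p = 0.00821). Trpv6, the entry channel of the calcium-absorbing enterocyte, had 0 counts in every library of either table and was not detectable at this depth. In organoids none of the 3 genes tested was called by edgeR or DESeq2, 0 having an unadjusted p under 0.05, and Atp2b1 (0.01 ± 0.09) and Vdr (-0.09 ± 0.10) were the most abundant.

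Of 16 other EF-hand and calcium-dependent proteins, 15 were tested in sorted cells, with 4 called higher and 5 lower and a median of -0.14. Both shares lay above the 21.5% and 21.4% of all genes tested, in a short list from which nothing is read. Sri, or sorcin, was at 228.7 to 281.6 CPM in Ret-EGFP+ libraries against 669.7 to 911.0 CPM in non-EGFP libraries (-1.58 ± 0.16, adjusted p = 7.02e-09), the lowest p of them. Sdf4, a calcium-binding protein of the Golgi, averaged 214.5 ± 31.5 CPM in Ret-EGFP+ cells against 104.9 ± 23.4 CPM in non-EGFP cells (1.03 ± 0.20, adjusted p = 0.000160). Calm2 (-0.81 ± 0.17, adjusted p = 0.000433) and Cib1 (-0.78 ± 0.18, adjusted p = 0.00130) were lower. Named after their values were seen, Pdcd6 was also lower and Rcn1, Capn2 and Calm3 higher. Calml4 (0.15 ± 0.16) and Capns1 (-0.14 ± 0.24) were abundant and not called. In organoids none of the 15 was called by edgeR or DESeq2, with 2 higher and 0 lower at an unadjusted p under 0.05, Calml4 standing at -0.12 ± 0.09.

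**Figure D5:**
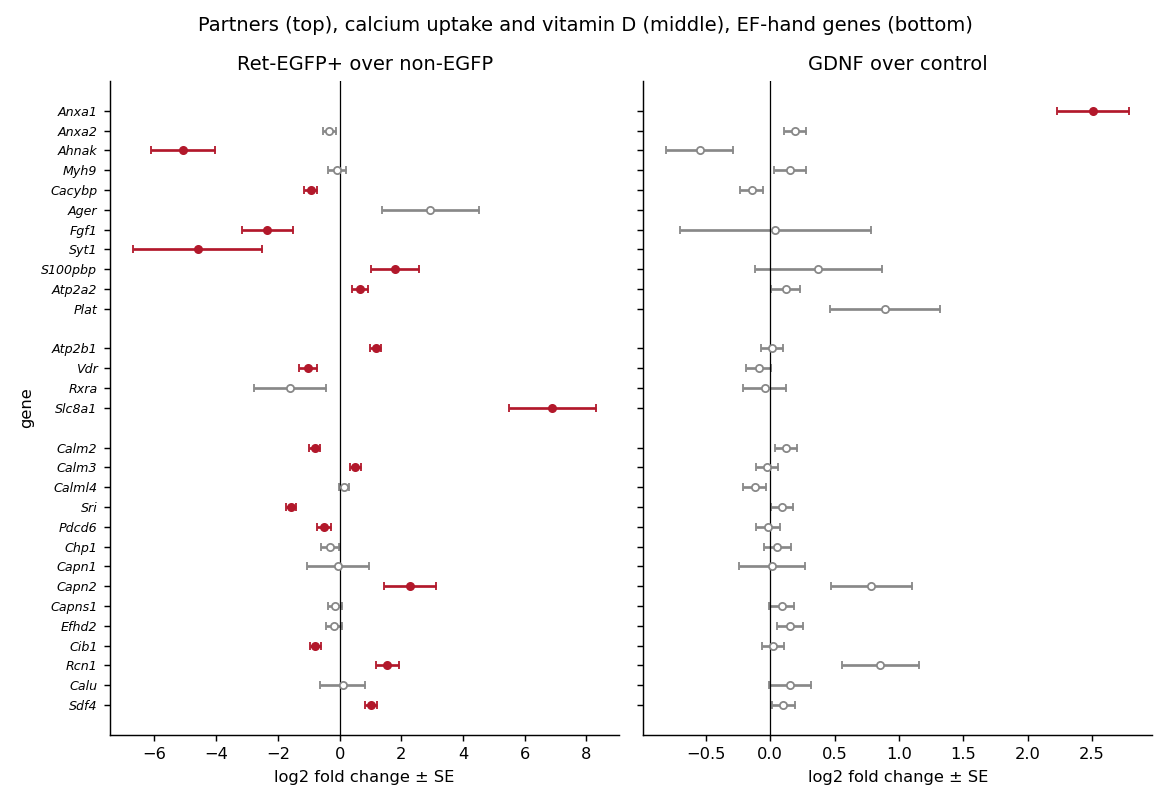
Log2 fold changes (± SE) of the partner genes (top), calcium uptake and vitamin D genes (middle) and other EF-hand and calcium-dependent genes (bottom, 1 not shown) with enough counts, Ret-EGFP+ over non-EGFP cells on the left and GDNF over control organoids on the right. Filled points passed an adjusted p under 0.1, and on the right this was Anxa1 alone, at 2.51 ± 0.28.

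Some markers of cell types other than those named moved with the comparisons too. In organoids 3 of 5 goblet, 3 of 5 Paneth and 2 of 5 stem cell markers were called higher with GDNF (0.532% of all genes tested), while 0 of 5 enterocyte, 0 of 5 enteroendocrine and 0 of 5 proliferation markers were (edgeR), as by DESeq2. At an unadjusted p under 0.05 the last 3 lists had 0, 1 and 1 genes higher and 0, 1 and 0 lower. The enteroendocrine list did not hold Tac1, Tph1, Pyy or Cck, which the paper reported as raised by GDNF in these organoids. The 0 of 5 therefore does not describe those genes. The Paneth markers summed to 23233 to 38494 CPM in GDNF and 20062 to 32973 CPM in control libraries, ranges that overlapped. The ranges of the goblet and stem cell sums overlapped between treatments as well. The part of goblet, Paneth and stem cells in the levels of S100a6, S100a11 and S100a14 was not tested. T and innate lymphoid markers were at 0 in every GDNF library for 5 of 5 genes and summed to at most 0.664 CPM in controls, and mesenchyme markers summed to 5.48 to 6.39 CPM with GDNF and 0.963 to 10.9 CPM in controls. In sorted cells, where all 5 markers each of goblet, Paneth, tuft and stem cells and of proliferation were called lower, the part of those cells in the lower S100a10, S100a16 and S100g was not tested.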

How the data were processed

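The authors aligned 3′ RNA-seq reads to GRCm38 with STAR 2.7.8a and deposited raw counts per Ensembl gene, made from molecular identifiers with BRB-seqTools. Groups came from the deposited sample sheets, since each GEO sample is 1 of 4 sequencing pools that mix groups. A reporter entry was left out. The 9 genes, the gene lists and the tests were chosen with earlier results of these data known. The text names the 9 genes, the other S100 genes, Ret and Chga, and from each list at most 4 called genes (lowest p) plus at most 2 uncalled genes of high level, with exceptions marked. The values of 1 listed gene are not reported here.

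The test was the quasi-likelihood test of edgeR 4.0.16 (R 4.3.3), with robust estimation and TMM factors. Genes entered it with 5 or more counts in all and a mean of 1 or more normalized counts, with Benjamini-Hochberg adjustment over all genes tested and a threshold of 0.1. The model held the treatment and, for organoids, the experiment. SE is the absolute log2 fold change over the square root of F, and intervals are 95%. The scripts were tested on simulated data. Alternatives were DESeq2 1.42.0 and its size factors, total counts alone, other filters, a threshold of 0.05, and libraries, plates or experiments left out. Counting intervals and floors cover counting error only. Neither sorted libraries of a population nor the 2 organoid libraries of a treatment and experiment agreed within sampling noise (chi-square per degree of freedom of at least 1.87).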

Additional observations from a re-analysis of the deposited data

Results flagged for a closer look

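S100a4 had a single library with counts in each group, which therefore stood far from the others at 0. It was at 0.548 CPM (2 counts) in 1 Ret-EGFP+ library and at 1.46 CPM (4 counts) in 1 non-EGFP library, and at 0.921 CPM in 1 GDNF and 0.506 CPM in 1 control library (1 count each). These were 4 of 36 groups of libraries examined. Chance marks about 1 in 20 groups of continuous values, but any group with counts in a single library is marked whatever their number.

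The GDNF effect on S100a10 ran in opposite directions between experiments. Both GDNF libraries lay below both controls in experiment 3 (log2 fold change -0.12), and above them in experiments 1 and 2 (0.16 and 0.33). The interaction test of the difference did not pass (edgeR adjusted p = 0.99).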

How the results depend on the processing

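The calls of S100a1, S100a13, S100a10, S100a16 and S100g in sorted cells held under the 22 alternatives run for them, and those of S100a6 and S100a11 with GDNF under 25. Leaving out 1 library gave 2 to 3 genes called higher and 3 lower in sorted cells, and 2 to 3 higher and 0 lower with GDNF. With total counts alone 4 genes were called higher in sorted cells. S100a14 with GDNF lost its call under 12 of 25 alternatives, among them no experiment term (no replicate block, 0.79), which called 5 of all genes higher and 0 lower, against 65 and 16. Without experiment 2 these were 31 and 6, and without GDNF library 2.2 they were 42 and 9. Among uncalled genes the sign changed for S100a6 in sorted cells with total counts alone (0.412), without plate 3 (0.36) and without non-EGFP library 2 (0.0254, single libraries left out giving -0.330 to 0.0254), and for S100a11 without plate 2 (-0.0813) and non-EGFP library 4 (-0.0313, single libraries left out giving -0.0313 to 0.187). In organoids it changed for S100g without experiment 2 (0.0782), control 2.1 (0.106) or GDNF 2.2 (0.0195) and with no experiment term (0.055), for S100a13 without experiment 2 (-0.069) or control 2.2 (-0.0384), and for S100a1 without control 2.1 (0.053). The causes were not tested. The test of levels between experiments with its alternatives, plate as a covariate in sorted cells, sequencing pool as a covariate in organoids, and edgeR without robust estimation were chosen after seeing the data. Under them 5 to 8 of the 8 S100 genes differed in level between experiments, and without robust estimation 6 genes, none of the 8 S100 genes among them, had a treatment effect that differed between experiments, against 1. A fit with the replicate number as a block was not run, since the sorted libraries carry no replicate number in the sample sheet and 1 GDNF library of experiment 2 carries none. Few counts limit S100a4, S100a14 and S100g in sorted cells, where the lowest library held 0, 2 and 1 counts of them.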
